A study of Populus trichocarpa with 6 samples.

Results

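Chains of 3 or more regions of PtrVCS2 enrichment, lying one after another along a chromosome, are described here in the cambium of Populus trichocarpa (black cottonwood). A shared region is a stretch in which the peak lists of all 3 replicates held a peak, after merging peaks that overlapped by at least 1 bp. Neighbouring shared regions with an edge-to-edge gap of 5000 bp or less were linked, and linked sets of at least 3 were kept as chains. Such chains numbered 174, and they held 591 of 4113 shared regions on the 19 chromosomes (14.4%). A further 1002 regions lay in 501 pairs and 2520 had no shared neighbour within 5 kb. In all, 31.3% of the merged regions on the chromosomes, dense arrays included, held a peak of every list. Stretches of dense peaks on chromosomes 2, 13 and 15, with 81 shared regions, were left out. Members were chosen by the positions of peaks and their presence in all 3 lists, and fold and p come from the same contrast. Number, spacing and fold are therefore given as descriptions, without tests.

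All 6 samples came from plants that overexpress PtrVCS2 fused to 3 copies of FLAG, a short peptide tag. In 3 IP samples, chromatin bound to the tagged protein was precipitated with an anti-FLAG antibody, and 3 input samples hold chromatin DNA with no antibody step. The 3 IP lists were made against pooled input, per the peak names in them. Input of the same genotype was thus the control, and values from an IP of untagged plants were not analysed here. The labels call the samples biological replicates. Neither the promoter that drove the fusion, the plants' age nor the number of transgenic lines is stated in the labels. Cambium is the layer of dividing cells that forms wood on its inner side and bark tissue on its outer side. ChIP-seq reads association with chromatin, direct or through other proteins, and a peak marks where IP fragments exceeded those of input.

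The lists held 6536, 10759 and 9255 peaks in replicates 1, 2 and 3. Total read counts are not in the files. The height of each summit, meaning the number of extended IP reads over it, and the height expected from the control were recovered from the deposited fold and −log10 p for 99.9% to 100% of peaks. A median peak rested on 44, 38 and 50 IP reads, so a single fold carries sizeable counting error. Because all folds share 1 pooled input, the spread between replicates leaves out the error of the control.

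Most chains were short. Of the 174 chains, 133 had 3 members, 25 had 4, 8 had 5, 5 had 6, 2 had 7 and 1 had 8. Their spans ran from 979 to 16677 bp with a median of 4.58 kb, and a median of 43.2% of a span was covered by its members. Members were 133 to 2327 bp wide, with a median of 487 bp. The 417 gaps between them had a median of 696 bp. Gaps of at most 500 bp made up 41.5% of these, and in 31 chains every gap was that narrow, so part of the chains are near-continuous stretches and not sets of distant sites. At the other end, 80 chains held a gap over 2000 bp, and their median span was 6791 bp.

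The chain of the highest fold among those with 7 or more members lay on chromosome 12, from 13860791 to 13871741. Its 7 members formed a block of 4 in the first 3 kb and a looser group of 3 after a gap of 3676 bp. Within the block, each member had a higher fold than the one before it, in every list. The first had folds of 3.16, 3.64 and 2.97 in replicates 1, 2 and 3, and the fourth had 9.02, 8.11 and 7.91. The fifth member, from 13867194 to 13867949, had folds of 12.7, 14.1 and 9.42, a mean of 12.1 ± 2.4 (SD, n = 3). Its 3 summits spanned 13 bp, on IP heights of 133, 122 and 116 reads against expected heights of 9.53, 7.73 and 11.4. All 3 lists thus put the same member highest, by a narrower margin over the fourth in replicate 3 than in the other lists. The sixth member, 283 bp further on, had only 3.77 and 3.25 in replicates 1 and 3 but 7.19 in replicate 2, so its rank in the chain depended on the list. The mean over the 7 members was 6.14, 7.09 and 5.40 in the 3 lists, or 6.21 ± 0.85 (SD, n = 3).

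**Figure D1:**
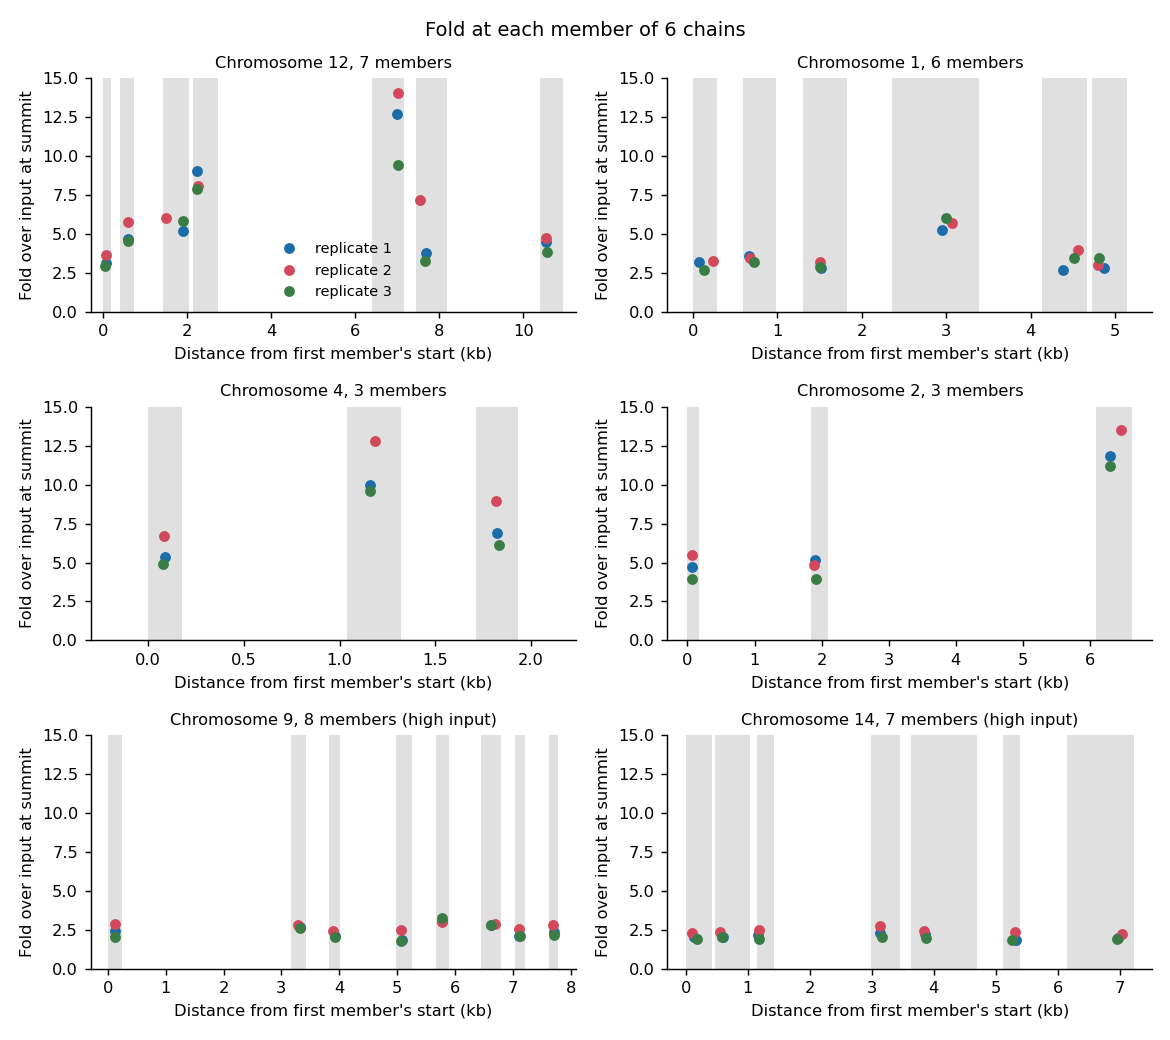
Fold over pooled input at the summit (y) against distance from the start of the first member in kb (x) for 6 chains, with 1 point per member and replicate and grey bands for the members' extents. In the chromosome 12 chain 1 member reaches 9.42 to 14.1, while the 2 high-input chains on chromosomes 9 and 14 stay between 1.76 and 3.24 throughout.

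The highest mean over members belonged to a compact chain on chromosome 4, from 15547854 to 15549787. Its 3 members stood within 1934 bp, and it was the 1 chain of 174 in which every member had a mean fold of at least 5. The middle member had folds of 9.96, 12.8 and 9.57, the last had 6.91, 8.94 and 6.14, and the first had 5.36, 6.73 and 4.88. Each list gave the same order of the 3 members, with replicate 2 highest at every one. The chain's mean was 7.92 ± 1.39 (SD, n = 3). Members here were narrow, 178 to 285 bp, and their summits agreed to within 26 bp.

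On chromosome 2, from 2907218 to 2913848, the third of 3 members stood apart. It had folds of 11.8, 13.5 and 11.2, a mean of 12.2 ± 1.2 (SD, n = 3), the highest of all 591 members and the fifth highest of all shared regions used here. The other members, 3995 bp or more away, had means of 4.71 and 4.65. Their folds in the 3 lists, 3.94 to 5.48, did not overlap those of the third. A like pattern was seen on chromosome 16, from 13043319 to 13050366, where the first member had a mean fold of 9.92 ± 0.72 (SD, n = 3) and the next had folds of 3.22, 2.58 and 2.26 after a gap of 3918 bp. In both chains a single strong site raised the mean of the chain. On chromosome 2 the other members were strong as well, above the upper quartile of mean fold among members, 3.95.

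In other strong chains several members had high folds. On chromosome 18, from 13989216 to 13993677, 5 members filled 69.1% of 4462 bp, and 4 of them had mean folds of at least 5. The first, 1729 bp wide, had folds of 6.69, 7.58 and 8.54, highest in replicate 3. The fourth had 6.15, 9.03 and 5.52, so which of these members was stronger differed between lists. Expected heights were low here, 1.22 to 1.57 times the lowest of the list. On chromosome 17, from 13846049 to 13854558, 4 members spread over 8.51 kb had mean folds of 4.09, 5.11, 6.78 and 5.78. The chain on chromosome 5 from 25284504 to 25287500 had a mean of 5.59 ± 0.76, and that on chromosome 13 from 1101913 to 1105466 had 5.49 ± 0.22 (SD, n = 3 each). In the latter, members of 792 and 1914 bp were parted by only 4 bp, with mean folds of 6.24 and 6.91, while the remaining member had 3.33.

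Fold did not follow the number of members in 1 direction. The median fold, averaged over lists, was 3.42 in chains of 3 members. It was 3.63 in chains of 4 and 3.645 in chains of 5, higher than in chains of 3 in each list. In chains of 6, 7 and 8 it was 3.12, 2.81 and 2.45. There, 6 of 30, 7 of 14 and 8 of 8 members were of the high-input class described below. That class also held 19 of 399 members in chains of 3, but none in chains of 4 or 5. Some chains with many members were even and weak. On chromosome 5, from 5681534 to 5698210, 6 members covered only 15.7% of the longest span of all, with gaps of up to 4730 bp. Their mean folds ran from 2.83 to 3.40, so the whole range was smaller than the SD between lists at the second, 3.40 ± 0.69, and at the fifth, 3.04 ± 0.89 (n = 3 each). The 6 members on chromosome 13 from 5264438 to 5278070 were likewise even, with mean folds of 2.76 to 3.76 over 13.6 kb. Another chain of 6, on chromosome 5 from 3923956 to 3932319, held the widest member of all at 2327 bp, where the folds were 3.98, 6.51 and 4.28. Its chain mean was 3.74, 4.57 and 3.93 in the 3 lists. On chromosome 1, from 2114468 to 2119606, the fourth of 6 members, 1019 bp wide, had folds of 5.23, 5.68 and 6.04, above every value of the other members, which lay between 2.67 and 3.97. The 5 members on chromosome 12 from 12461919 to 12469974 had mean folds of 6.43 at the first, 3.81, 4.32 and 3.09 between, and 2.95 at the last.

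Other chains were compact. The densest chain of 4 or more members, on chromosome 14 from 11393447 to 11395666, had 1.80 members per kb and gaps of 65 to 138 bp. Mean folds there were 3.97, 3.58, 3.40 and 3.11 in order of position, with SDs between lists of 0.13 to 0.36 (n = 3). The order was not the same in every list, as replicate 1 had 3.68 at the first and 3.87 at the second. A chain of 4 on chromosome 10, from 18961343 to 18963721, covered 90.1% of its span. Its outer members had mean folds of 6.39 and 5.42, and the inner ones 3.37 and 3.30. On chromosome 2, from 9377051 to 9380279, 5 members covered 73.1% of the span and had mean folds of 3.28 to 4.40, and the chain mean was 3.97, 4.05 and 3.94 in the 3 lists. The 4 members on chromosome 12 from 14624894 to 14628276 covered 63.3% of theirs, with a gap of 946 bp, and their mean folds lay between 3.34 and 3.88.

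A small class of chains lay where the input itself was high. A region is called high-input where its expected height, divided by the lowest of the list, averaged at least 4 over the 3 lists. Of the members, 40 were of this class (6.77%), against 7.05% of all shared regions. They were gathered in few chains, since 36 of them made up 8 chains entirely and the other 4 sat singly in chains of 3. The 8-member chain, the longest by members, was one of the 8. It lay on chromosome 9 from 2723654 to 2731445, with folds of 1.86 to 3.07 in replicate 1, 2.42 to 2.99 in replicate 2 and 1.76 to 3.24 in replicate 3. The chain of 7 on chromosome 14 from 16978820 to 16986043 and the chain of 6 on chromosome 13 from 9591476 to 9595481 also belonged to it, with chain means of 2.15 ± 0.23 and 2.15 ± 0.17 (SD, n = 3 each).

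In these 8 chains, the median expected height was 70.1, 58.3 and 79.2 reads, compared with 13.4, 10.9 and 15.6 in the 162 chains without such a region. Median IP heights were also higher, 138, 136 and 151 against 47, 43 and 58. The fold was lower, with medians of 2.07, 2.35 and 1.95, or 2.12 ± 0.21, against 3.30, 3.66 and 3.52, or 3.49 ± 0.18 (SD, n = 3 each). All 3 lists showed this, although at a fixed limit on p a high expected height admits lower folds. Summits lay closer together, within 100 bp in 86.1% of the 36 members and in 47.1% of the 543 members of the other chains. Members were narrower, with a median of 304 bp against 500 bp, and the median gap was 354 bp against 740 bp. Of the 7 chains in which every member stayed below a mean fold of 3, all were of this class. The part of the high input in these folds was not tested.

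**Figure D2:**
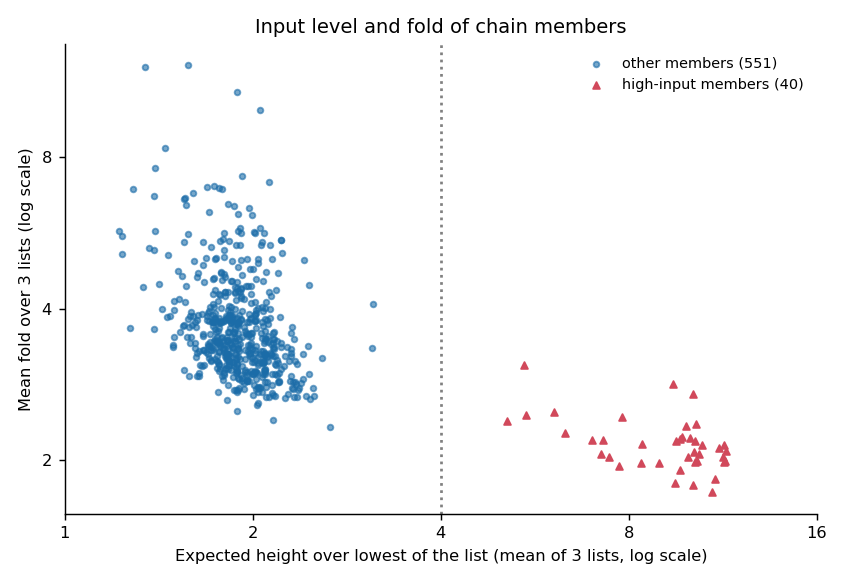
Mean fold over the 3 lists (y, log scale) against the expected height divided by the lowest of the list (x, log scale) for the 591 chain members. The 40 high-input members, right of the dotted line at 4, stand apart from the other 551, and none of them reaches a mean fold above 3.10.

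Members of the same chain varied in fold nearly as much as members of different chains. The ratio of the highest to the lowest mean fold within a chain had a median of 1.35 and ran from 1.02 to 3.71, the latter in the chromosome 12 chain. In the 162 chains without high input, 17.3% of the variance of log2 mean fold lay between chains and the rest within them. In single lists that share was 16.8%, 20.5% and 9.04%, with the lowest value in replicate 3. With the high-input chains counted it was 36.8%. These shares are descriptions over neighbouring regions, which are not independent.

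Which member was strongest was repeatable where the members differed clearly. The same member had the highest fold in all 3 lists in 87 of 174 chains. Where highest and lowest member differed by at least 1.5 times, this held in 54 of 65 chains. Below a ratio of 1.3 it held in 11 of 74. The ratio and the order come from the same folds. The chain on chromosome 1 from 8022497 to 8024681, with a ratio of 2.66, shows the first case. Its last member had folds of 7.03, 7.22 and 7.15, and its first had a mean of 2.68 ± 0.35 (SD, n = 3). In chains of 3, the strongest member by mean fold was the first in 49, the middle in 45 and the last in 39, so no position stood out by count.

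Chain members had nearly the same fold as shared regions without a neighbour. Their median fold was 3.24, 3.60 and 3.44 in replicates 1, 2 and 3, and that of single regions was 3.19, 3.56 and 3.40. The chain median was higher in each list, by 0.0454, 0.0403 and 0.0408, while the medians themselves varied between lists by an SD of 0.18 (n = 3). Without high-input regions the differences were 0.0293, 0.0200 and 0.0211. The direction depended on the definition of a region: the median of the mean folds was 3.43 in chains and 3.37 in single regions, but 3.46 against 3.62 when peaks had to overlap by 50%, 3.26 against 3.42 with summits within 100 bp and 3.33 against 3.37 with the dense arrays kept. Pairs had medians of 3.35 ± 0.17 (SD, n = 3). Widths were close as well, with a median of 487 bp in chains and 485 bp in single regions, and IP heights had medians of 48, 44 and 59 in chains and 48, 44 and 60 in single regions.

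**Figure D3:**
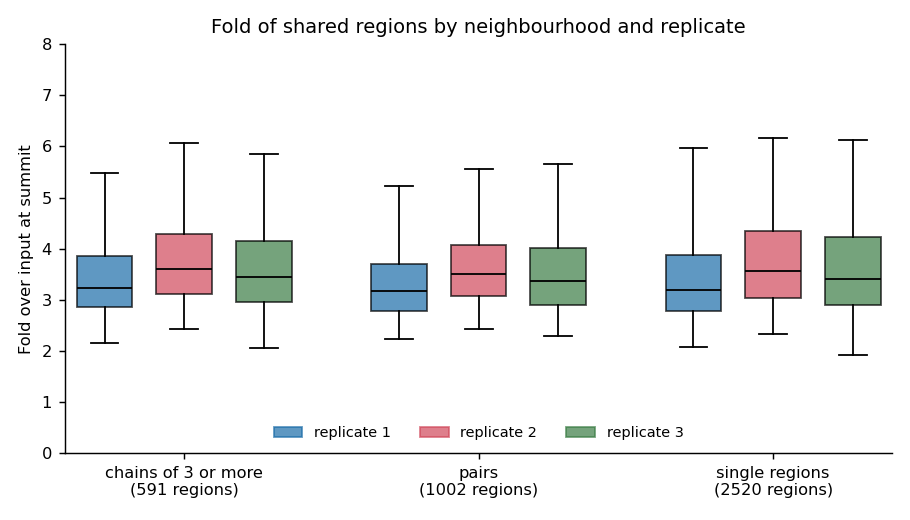
Fold over pooled input (y) of chain members, members of pairs and single shared regions (x), by replicate, with boxes for the median and quartiles and whiskers from the lower to the upper 5% of regions. Medians of chain members, at 3.24 to 3.60, differ from those of single regions, at 3.19 to 3.56, by less than replicates differ from each other.

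Over all members, the share of strong regions was near that of all shared regions, and by fold below that of single regions. Of the members, 62 had a mean fold of 5 or more (10.5%), against 11.2% of all 4113 shared regions, and these 62 lay in 46 chains. In single regions the share was 12.8%, and in pairs it was 7.58%. Without high-input regions it was 11.3% in members and 13.9% in single regions. The upper 5% of regions began at a mean fold of 5.67 in members and 6.02 in single regions. A −log10 q of at least 10 in every list was held by 200 members (33.8%), against 31.3% overall. In 296 members (50.1%) the 3 summits fell within 100 bp, against 51.4% overall. All 3 shares of members are near those of all shared regions. Among the 20 strongest shared regions by mean fold, 5 were chain members, on chromosomes 2, 4, 12 and 16 in the chains described above, a larger share than the 14.4% of all shared regions, though on few regions and not tested. The spread between lists was also alike, with a median SD of 10.7% of the mean fold in members and 10.6% in single regions. Replicate 2 had the higher fold than replicate 1 in 73.9% of members and in 71.4% of single regions.

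Whether chain membership foretold a peak in a list that had not been used was asked by building regions and chains from 2 lists and reading the third. With replicate 1 held out, 73.2% of 1241 chain members and 71.2% of 2974 single regions had a peak in it. With replicate 2 held out the shares were 88.4% of 838 and 87.2% of 2671, and with replicate 3 held out 92.3% of 953 and 89.6% of 2524. Members of pairs were at 72.2%, 85.4% and 92.5%, below single regions with replicate 2 held out and above chain members with replicate 3 held out. Chain members were found more often than single regions each time, by 2.01 ± 0.73 percentage points on average (SD, n = 3). An exact sign-flip permutation test over these 3 differences gave a two-sided p = 0.25, the smallest that 3 values allow, and the values share lists. Without high-input regions the difference was 1.72 ± 1.08 points (SD, n = 3), and with replicate 3 held out the shares were 92.7% and 92.1%. The size of the difference moved with the definition, from 1.23 points with gaps of up to 10000 bp to 4.31 points with a −log10 q of at least 10. Recovery differed far more between held-out lists than between chains and single regions, and it was lowest for replicate 1, which had the fewest peaks.

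Split by mean fold in the lists that were used, and without high-input regions, the difference was not of one sign. Between folds of 2.5 and 3.5, chain members were recovered in 60.2%, 81.9% and 88.6% of cases with replicates 1, 2 and 3 held out, and single regions in 53.6%, 79.9% and 87.5%. From a fold of 3.5 up, the shares were 91.6%, 97.8% and 98.8% in chains and 94.4%, 98.2% and 98.4% in single regions. Chain members were thus ahead in the middle class in all 3 lists and behind in the upper class in 2 of 3. The lowest class held 15 to 23 chain members and is not compared. Of chains built from 2 lists, 135 of 353, 160 of 243 and 209 of 270 had every member recovered in the third.

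Peaks that were not shared by all 3 lists were denser in the gaps of chains than beside single regions. Between their outer edges the chains enclosed 163 merged regions that had a peak in 1 list (113) or in 2 lists (50), and 89 of the 174 chains held at least 1. Counted by summit, the gaps had 0.762, 1.79 and 1.54 such peaks per 10 kb in replicates 1, 2 and 3, and the 5-kb flanks of single regions had 0.184, 0.496 and 0.503. Gaps lie closer to shared regions than flanks do, and such peaks thin out with distance, so equal distances were compared next. Within 500 bp of a shared region, gaps held 1.32, 2.61 and 2.14 per 10 kb, the outer flanks of chains 0.862, 1.61 and 1.61, and the flanks of single regions 0.679, 1.43 and 1.48. In each list the gaps were highest, although a gap has a shared region on both sides and a peak that touches one is merged into it. From 500 to 1000 bp the values were 0.298, 1.19 and 0.968 in gaps, 0.402, 1.09 and 0.747 in outer flanks of chains and 0.278, 0.774 and 0.829 in flanks of single regions. There the outer flanks exceeded the gaps in replicate 1, and the gap values rest on only 4, 16 and 13 peaks. Over all distances, the excess of gaps over flanks of single regions averaged 0.971 per 10 kb, and 0.610 when chains were built with gaps of up to 10000 bp.

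**Figure D4:**
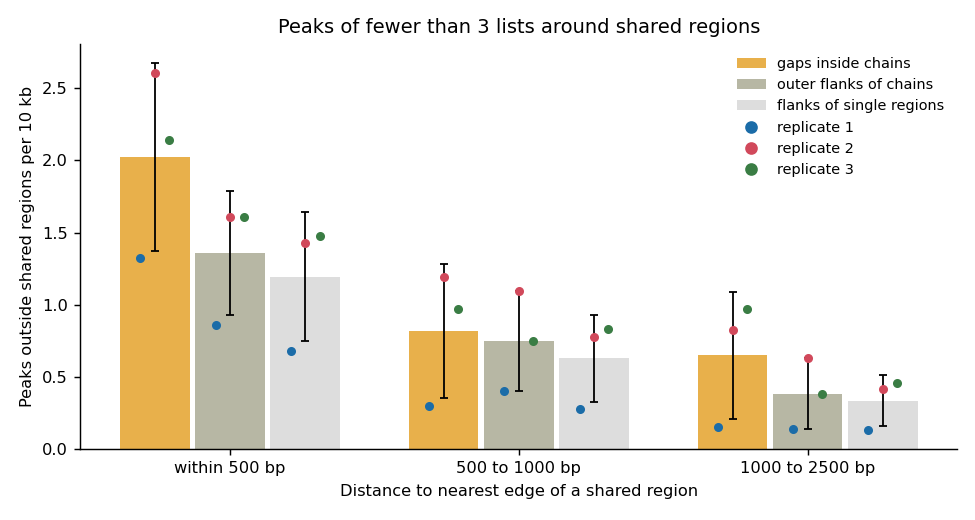
Peaks outside shared regions per 10 kb (y), by distance from the nearest edge of a shared region (x), in gaps inside chains, outer flanks of chains and flanks of single regions, with bars for the mean, error bars for the SD (n = 3) and a point per replicate. Within 500 bp the mean is 2.02 in gaps, 1.36 in outer flanks and 1.19 beside single regions.

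Chains were spread unevenly over the chromosomes. On chromosome 12, 58 of 186 shared regions (31.2%) lay in 16 chains, on chromosome 9 55 of 218 (25.2%) in 15 chains and on chromosome 13 34 of 139 (24.5%) in 9 chains. On chromosome 11 it was 6 of 166 (3.61%) in 2 chains. The 95% Wilson intervals were 25.0% to 38.2% on chromosome 12 and 1.67% to 7.66% on chromosome 11. They treat regions as independent, but members come in sets of at least 3 by the rule, so the intervals are too narrow even for counting error. The density of shared regions also varied. Up to the last peak, chromosome 9 had the highest, 16.8 per Mb, chromosome 8 had 14.2 with 11.5% of its regions in chains, chromosome 12 had 11.8, and chromosomes 11 and 13 had 8.98 and 8.57. The part of density in the shares was not tested. Without high-input regions the shares were 31.9% on chromosome 12, 22.2% on chromosome 9, 20.8% on chromosome 13 and 3.87% on chromosome 11. Chromosomes 8 and 10 had 9 and 12 chains, and chromosome 19 had 3.

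**Figure D5:**
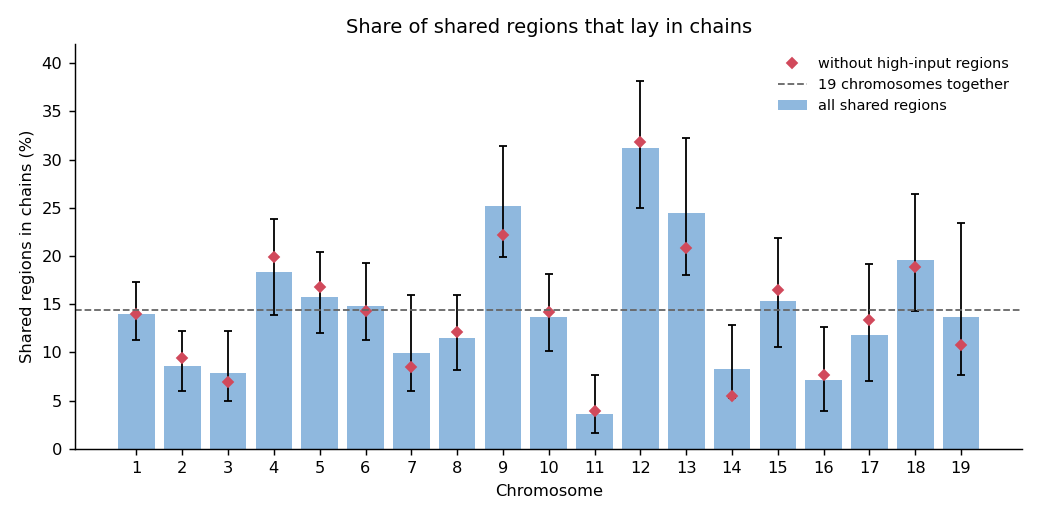
Percent of shared regions that lay in chains (y) on each of the 19 chromosomes (x), with 95% Wilson intervals, diamonds for the share without high-input regions and a dashed line at 14.4%. Chromosome 12 stands highest at 31.2% and chromosome 11 lowest at 3.61%. The intervals treat regions as independent and are too narrow, since members come in sets.

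Distances between chains ranged widely, and by the rule they all exceed 5000 bp. They were not compared with a random placement. The median distance from a chain to the nearest other chain was 626 kb, and 28 of 174 had another within 100 kb. In 8 it lay within 20 kb, and these formed 4 neighbouring couples on chromosomes 1, 5, 9 and 12. The closest couple, 5405 bp apart, ran on chromosome 12 from 13930691 to 13935893 and from 13941299 to 13947687, with chain means of 3.69 and 3.10, starting 58949 bp beyond the strong 7-member chain. On chromosome 9, the couple from 9272145 to 9277670 and from 9283995 to 9290558 was followed after 24720 bp by a chain from 9315279 to 9319874.

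The chaining distance did not fall at a break in the gap lengths. Between all neighbouring shared regions, 65 gaps measured over 4000 and up to 5000 bp and 55 over 5000 and up to 6000 bp. Just inside, the chain on chromosome 2 from 1057816 to 1067197 held on to its last member over 4984 bp and had a mean fold of 3.13 ± 0.32 (SD, n = 3). The chain on chromosome 10 from 20923904 to 20932024, with a gap of 4941 bp, had 3.70 ± 0.12 (SD, n = 3). Just outside, 3 regions on chromosome 5 from 25536147 to 25545356 were kept apart by a gap of 5055 bp, with mean folds over them of 4.62, 5.66 and 5.64 in the 3 lists. On chromosome 15, 3 regions from 14983346 to 14991546 missed by a gap of 5084 bp, with 3.00, 3.69 and 4.19. The number of chains also depended on what counts as a shared region, and was 17 when a −log10 q of 10 or more was required of each peak.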

How the data were processed

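The submitters' processing notes list MACS2 2.1.0, which calls peaks, beside Bowtie2 2.3.5 for alignment and Trimmomatic 0.33 for trimming. For the build, the threshold and duplicates, nothing is stated in the labels or files. The lowest −log10 p was 5.01, 5.00 and 5.00 in replicates 1, 2 and 3, so the lists ended at nearly the same p. The authors deposited 1 peak list per IP replicate, and the fold (a ratio of summit IP to pooled input), −log10 p, −log10 q and the score, which is 10 times the −log10 p without decimals, are theirs. These readings follow the peak format, as the files have no headers.

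Peaks were merged and chained with Python 3.11.15 and pandas 2.3.3. A region's fold in a list is that of its peak with the highest −log10 p. IP and expected heights were solved from fold, with 1 read added to each height, and a Poisson p, to within 1e-04. Recovery and chaining were tested on simulated data. Positions are counted from 1. The members, lists and tests were chosen with earlier results of these data known. Named chains are the 10 with most members, the 8 of highest mean fold, the 5 densest of at least 4 members, the 4 of widest ratio, the chains of the 5 strongest members and those nearest the chaining limit.

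No genome was used. Peaks ran over 100 kb past the last gene of the available P.trichocarpa_v4.1 table on 9 of 19 chromosomes, so neither genes nor sequence were attached, and the planned look at genes near chains was not run. Alternatives covered the chaining distance, overlap, summits, peak threshold, equal list lengths, high-input regions, arrays, replicates and the added read.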

Additional observations from a re-analysis of the deposited data

How the results depend on the processing

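The number of chains, 174 with 591 members or 14.4% of shared regions, followed the definition. With a gap of at most 2000 bp there were 109 chains and 363 members (8.83%), and with 10000 bp 904 members (22.0%). With a −log10 q of at least 10 there were 17 chains and 59 members (4.58%), with 50% mutual overlap 36 and 120 (5.47%), with summits within 100 bp 34 and 121 (5.72%), and with lists cut to equal length 101 and 344 (11.1%). Joining regions at most 500 bp apart, an alternative added after seeing the data, left 82 chains of 265 joined regions (7.05%). The share was 13.2% when merging needed 100 bp of overlap and 16.0% with the dense arrays kept. Without 1 replicate, a looser definition, there were 243 to 353 chains, 838 to 1241 members and 17.6% to 21.5%, with medians of 3.27 to 3.36 in chains and 3.20 to 3.30 in single regions.

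Median mean folds, 3.43 in chains and 3.37 in single regions, became 4.71 and 4.58 with the q threshold, 3.67 and 3.60 with equal lists, and 3.61 and 3.56 without the added read. With 50% overlap single regions had 3.62, above the 3.46 of chains, with close summits 3.42 against 3.26, and with the dense arrays kept 3.37 against 3.33, so the small difference between them changed direction in these 3. The excess of partial peaks in gaps was 0.971 per 10 kb, 1.34 at a gap of 2000 bp, 0.610 at 10000 bp and 0.785 with equal lists. The difference in held-out recovery, 2.01 points, kept its direction in all 8 alternatives run, at 1.23 with 10000 bp, 3.79 with 2000 bp, 3.84 with equal lists and 4.31 with the q threshold. What caused the shifts above was not tested. No paired analysis was possible because each IP list was set against pooled input, not its own. A gap without a listed peak was not shown to be unbound, as weaker signal is not listed.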

Other observations

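The 174 chains were also counted under 6 stricter definitions: a gap of at most 2000 bp, a −log10 q of at least 10, mutual overlap of 50%, summits within 100 bp, equal list lengths, and regions at most 500 bp apart joined, the last added after seeing the data. A chain was kept where a chain under the definition overlapped it. All 6 definitions kept 4 chains, which are the 7-member chain on chromosome 12, the 5-member chain on chromosome 18 and the high-input chains of 8 members on chromosome 9 and of 7 on chromosome 14. A further 5 chains were kept by 5 definitions, 55 by 1 and 8 by none. A chain with more members can lose some of them and still hold 3, whereas 133 of the 174 chains had only 3. The part of member number in these counts was not tested.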
